A study of Mus musculus with 4 samples.

Results

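Tuft cells are rare chemosensory cells of the intestinal epithelium. The 10 genes described here are Dclk1, Trpm5, Il25, Pou2f3, Gfi1b, Avil, Alox5ap, Hpgds, Sucnr1 and Ptgs1, chosen by symbol as genes that tuft cells are known for, and all 10 were among the 56748 genes listed. RNA-seq was performed on the small intestine (SI) of WT and p53-/- mice, with 2 libraries per genotype, at 1 day after 12 Gy of total-body irradiation (TBI) from a Cs-137 source. Each library was made from polyadenylated RNA of the whole tissue. Mice came from the Jackson Laboratory, were 8 to 12 weeks old and were matched for age and gender per the methods of the study. The p53 deficiency is in the whole animal, so epithelium and immune cells both carry it. Mice of both genotypes were irradiated, and unirradiated SI was not analysed here, so each value describes the irradiated gut and the comparison is between genotypes only. The libraries are named by the numbers in the deposited table, 7 and 8 for WT and 9 and 10 for p53-/-, and these numbers pair no animals.

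A tuft cell is specified by the transcription factor POU2F3. It senses metabolites of microbes and parasites through surface receptors, G proteins and phospholipase C, and the calcium released in the cell opens the cation channel TRPM5. Tuft cells are the main epithelial source of IL-25, and they also make leukotrienes and prostaglandins. Group 2 innate lymphoid cells answer with IL-13, which expands tuft and goblet cells. In a whole-tissue library, fewer tuft cells and less RNA per tuft cell cannot be told apart.

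The libraries held 15005479 to 22173164 counts. Levels are given as CPM, counts relative to the total of a library after the libraries were scaled to each other by TMM, a method that uses the bulk of genes shared by all libraries. Trp53 was at 57.7 and 47.1 CPM in WT and lower in p53-/-, at 19.8 and 22.5 CPM (edgeR adjusted p = 0.0602). Epithelial markers were abundant in all 4 libraries, with Krt8 at 4361 to 8137 CPM and Epcam at 2225 to 4181 CPM. A pair of libraries stood apart from the library of the same genotype. WT library 8 had a summed level of smooth muscle and fibroblast markers of 3642 CPM, against 426 to 1128 CPM in the other libraries. p53-/- library 10 had 894 counts of the B cell gene Cr2, against 10 in library 9 and at most 1 in the WT libraries. Library 10 also had 588 counts of Xist, which marks female cells, against 0 to 4 elsewhere. The study states gender matching, but its reporting form does not indicate sex, and the sex of the libraries was not tested. The ribosomal RNA gene Rn18s-rs5 took 4.59% of the counts of library 10, against 0.296% to 0.863% elsewhere. Values without these libraries are given where they change a result.

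Of the 10 tuft cell genes, 9 had enough counts to be tested across genotypes, and Il25 did not. Gfi1b passed the filter on low counts through its level in the p53-/- libraries. No member passed the threshold, an adjusted p of 0.05 (edgeR's quasi-likelihood fit, adjusted by Benjamini-Hochberg over all 16094 genes tested), where 0.491% of all genes passed it. One member, Hpgds, had an unadjusted p under 0.05, as did 18.0% of all genes. DESeq2 called 0 of the 9, against 8.54% of all genes, and edgeR's likelihood ratio test also called 0. Both p53-/- libraries were above both WT libraries for 3 of the 9 tested members (Pou2f3, Gfi1b and Hpgds), a pattern seen in 26.4% of all genes, and below both for 2 members (Dclk1 and Trpm5), as in 24.4% of all genes. The other 4 overlapped between genotypes. The median log2 fold change, p53-/- over WT, was -0.14 over the 9 members and -0.01 over all genes tested. Summed over the 10 members, the level was 61.6 and 89.3 CPM in the WT libraries and 67.3 and 69.4 CPM in the p53-/- libraries, so the highest library was 1.45 times the lowest. Most of that spread came from Ptgs1. The sum without it, a set chosen after its values were seen, was 51.2 and 54.4 CPM in WT and 48.0 and 49.2 CPM in p53-/-.

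**Figure D1:**
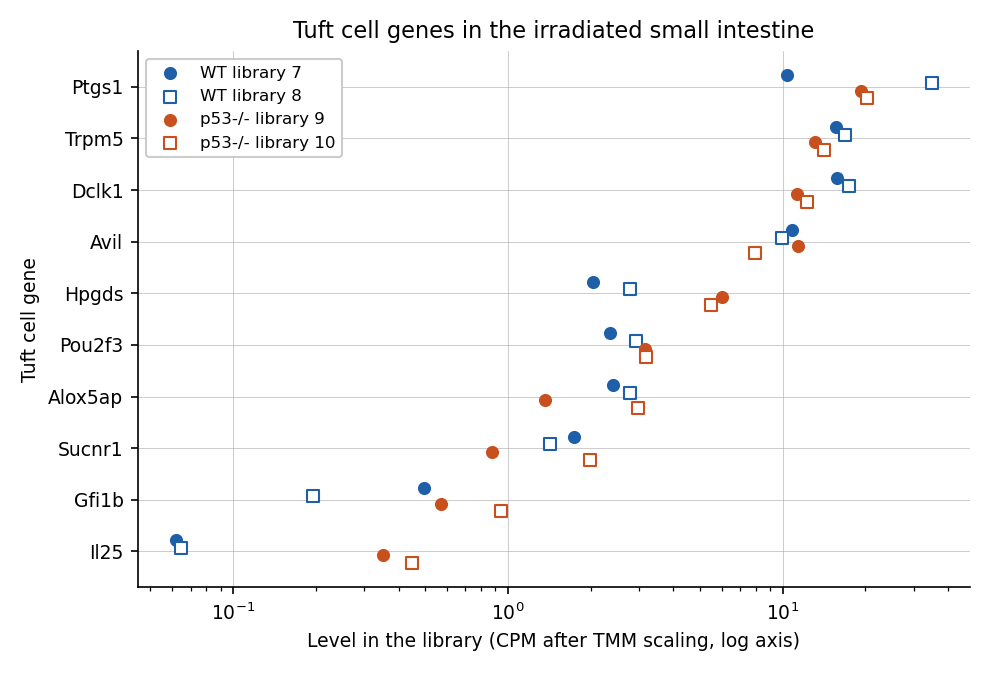
Level of each of the 10 tuft cell genes in each library, in CPM after TMM scaling on a log axis. WT libraries are blue and p53-/- libraries are orange, and each point is 1 library. Il25, Pou2f3, Gfi1b and Hpgds have both p53-/- points to the right of both WT points, and Dclk1 and Trpm5 have them to the left. Ptgs1 has its lowest point in WT library 7 and its highest in WT library 8.

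Pou2f3 (ENSMUSG00000032015) encodes the POU-domain transcription factor on which tuft cells depend. It was at 2.35 and 2.92 CPM in WT and at 3.16 and 3.18 CPM in p53-/-. The p53-/- libraries were both higher, by less than the error of the fit, with a log2 fold change of 0.27 (95% interval -0.80 to 1.34, edgeR adjusted p = 0.806). Gfi1b (ENSMUSG00000026815), a zinc-finger repressor of tuft cells and of erythroid and megakaryocytic cells, had 8 and 3 counts in WT and 13 and 19 counts in p53-/-. Its log2 fold change was 1.11, and at these counts the 95% interval ran from -0.82 to 3.04 (edgeR adjusted p = 0.527). It was 1.92 without library 7, 0.60 without library 8 and 0.77 without library 10. Markers of erythroid cells summed to 1.30 and 2.47 CPM in WT and to 3.02 and 7.36 CPM in p53-/-. Markers of platelets and megakaryocytes summed to 4.58 and 27.3 CPM in WT and to 13.5 and 20.4 CPM in p53-/-. Gfi1b itself was at 0.495 and 0.195 CPM in WT and at 0.570 and 0.945 CPM in p53-/-. The part of these cells in the level of Gfi1b was not tested.

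POU-domain factors such as POU2F3 bind the octamer ATGCAAAT. The 250 bases before the RefSeq start of the members were searched for it on both strands, on build GRCm38.p6. A RefSeq promoter was matched for 7 of the 10 members, and 2 of them, Hpgds and Sucnr1, held the octamer. Over all genes with a RefSeq promoter it was found in 490 of 27025, or 1.81%. These windows are shown because they carry the motif of the factor that specifies the cell, with the octamer in capitals, 5′ to 3′ on the strand of the gene. They cover chr6:65144731-65144980 on the minus strand for Hpgds and chr3:60081619-60081868 on the plus strand for Sucnr1. The first base of the octamer lies 174 bases before the start of Hpgds and 48 bases before that of Sucnr1.
Hpgds: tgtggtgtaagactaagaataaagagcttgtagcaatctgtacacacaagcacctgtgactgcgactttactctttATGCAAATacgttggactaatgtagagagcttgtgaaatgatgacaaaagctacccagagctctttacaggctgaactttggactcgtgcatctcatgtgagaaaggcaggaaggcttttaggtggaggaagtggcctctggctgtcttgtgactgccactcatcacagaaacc
Sucnr1: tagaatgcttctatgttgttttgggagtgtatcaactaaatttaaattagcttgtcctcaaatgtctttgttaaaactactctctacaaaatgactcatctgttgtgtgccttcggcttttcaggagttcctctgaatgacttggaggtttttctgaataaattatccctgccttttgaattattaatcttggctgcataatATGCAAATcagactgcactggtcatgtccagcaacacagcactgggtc
A match is a description of the letters in the window and shows no binding. The 2 genes did not share a pattern across the libraries, since the genotypes were apart for Hpgds and overlapped for Sucnr1.

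Sucnr1 (ENSMUSG00000027762) encodes the receptor by which tuft cells sense succinate. It was at 1.73 and 1.43 CPM in WT and at 0.88 and 1.99 CPM in p53-/-, so both the lowest and the highest library were p53-/-. Its log2 fold change was -0.14 (95% interval -1.65 to 1.36, edgeR adjusted p = 0.933), and it turned to 0.33 without library 9. Trpm5 (ENSMUSG00000009246), the calcium-activated cation channel at the end of the chemosensory cascade, was at 15.6 and 16.9 CPM in WT and at 13.1 and 14.1 CPM in p53-/-. Both p53-/- libraries were lower. The log2 fold change was -0.26 (95% interval -0.85 to 0.33, edgeR adjusted p = 0.635), which turned to 0.23 when the libraries were scaled to epithelial markers. Trpm5 shares 3.44% of its exonic bases with Tssc4 on the other strand.

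Dclk1 (ENSMUSG00000027797), a microtubule-associated kinase used widely to stain tuft cells, was at 15.7 and 17.5 CPM in WT and at 11.3 and 12.2 CPM in p53-/-. Every p53-/- library was below every WT library, and the mean was 16.6 ± 1.23 CPM in WT and 11.8 ± 0.688 CPM in p53-/- (SD, n = 2). The log2 fold change of -0.50 had a 95% interval of -1.11 to 0.11 (edgeR adjusted p = 0.363), which spans a fold of 0.465 to 1.08. The 10 enteric neuron and glia markers summed to 33.0 and 97.5 CPM in WT and to 31.7 and 25.5 CPM in p53-/-. All 9 tested had a lower fitted level in p53-/-, with a median log2 fold change of -1.27. In edgeR 0 passed the threshold and 2 had an unadjusted p under 0.05, beside 18.0% of all genes. DESeq2 called 0, beside 8.54% of all genes. The part of these cells in the level of Dclk1 was not tested. Avil (ENSMUSG00000025432), an actin-binding protein of the villin family found in tuft cell microvilli, was at 10.8 and 9.93 CPM in WT. In p53-/- it was at 11.4 and 7.91 CPM, so the genotypes overlapped, with a log2 fold change of -0.10 (95% interval -0.90 to 0.70, edgeR adjusted p = 0.908). Dclk1, Trpm5 and Avil together summed to 42.1 and 44.3 CPM in WT and to 35.7 and 34.2 CPM in p53-/-. This set was not planned before the values were seen, and all 3 genes had a lower fitted level in p53-/-. The sum over all 10 members overlapped between genotypes, at 61.6 and 89.3 CPM in WT and 67.3 and 69.4 CPM in p53-/-.

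Il25 (ENSMUSG00000040770), the cytokine by which tuft cells start the type 2 response, was near the limit of detection. It had 1 count in each WT library and 8 and 9 counts in the p53-/- libraries, or 0.0619 and 0.0649 CPM against 0.351 and 0.448 CPM. Both p53-/- libraries were above both WT libraries. Pooled over the libraries of each genotype this was 2 against 17 counts, a ratio of 6.25 relative to the scaled library sizes, with an exact 95% interval of 1.48 to 55.8 that covers counting error only and not the spread between libraries. A level of 3 counts corresponded to 0.132 to 0.195 CPM, so the WT libraries were under that floor.

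Hpgds (ENSMUSG00000029919), the hematopoietic prostaglandin D synthase, showed the largest fitted difference of the 9 tested members with all 4 libraries in the fit. It was at 2.04 and 2.79 CPM in WT and at 6.005 and 5.47 CPM in p53-/-, or 33 and 43 counts against 137 and 110. The genotypes did not overlap, with means of 2.42 ± 0.529 against 5.74 ± 0.377 CPM (SD, n = 2). The fold was 2.37 (95% interval 1.17 to 4.81), a log2 fold change of 1.25 (edgeR unadjusted p = 0.0251, adjusted p = 0.211). DESeq2 gave an adjusted p of 0.157, and over all 14 alternatives of scaling, filter, test and libraries the log2 fold change ran from 1.05 to 1.70 and the adjusted p from 0.0957 to 0.748.

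Hpgds is also expressed by mast cells and by antigen-presenting cells, and markers of immune cells differed in level between the libraries as well. All 11 macrophage and monocyte markers had a higher fitted level in p53-/-, and 9 of 11 had both p53-/- libraries above both WT libraries, beside 26.4% of all genes. In edgeR 0 of 11 passed the threshold and 5 had an unadjusted p under 0.05, beside 18.0% of all genes. DESeq2 called 1 of the 11, beside 8.54% of all genes. The median log2 fold change of the 11 markers was 1.17, with sums of 70.4 and 215 CPM in WT and 269 and 714 CPM in p53-/-. Their most abundant genes were Lyz2, at 12.4, 46.1, 53.2 and 411 CPM in libraries 7 to 10, and C1qa, at 12.1, 42.6, 45.9 and 77.4 CPM. The 8 dendritic cell markers summed to 3.53 and 15.3 CPM in WT and to 29.1 and 52.3 CPM in p53-/-, where edgeR called 0, 4 had an unadjusted p under 0.05 and DESeq2 called 3. Of the 11 mast cell markers 3 were tested, of which edgeR called 0, 1 had an unadjusted p under 0.05 and DESeq2 called 1. That gene was Mcpt1 in both cases, and it passed the filter on low counts through its level in the p53-/- libraries. The list summed to 15.4 and 28.6 CPM in WT and to 34.1 and 30.0 CPM in p53-/-, almost all of it Kit, which is also found outside mast cells. Mcpt1, a chymase of mucosal mast cells, had 0 counts in both WT libraries and 70 and 27 in p53-/-. Of mast cell genes named after their values were seen, Mcpt2 had 0 counts in both WT libraries and 22 and 8 in p53-/-. Cma1 went the other way, with 6 counts in each WT library and 0 and 1 in p53-/-. Tpsb2 had 19 and 2 counts in WT and 9 and 0 in p53-/-. Tpsab1 and Fcer1a had 0 counts in all 4 libraries and Cpa3, the mast cell carboxypeptidase, at most 2. The part of these cells in the level of Hpgds was not tested.

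Alox5ap (ENSMUSG00000060063), which presents arachidonic acid to 5-lipoxygenase at the start of leukotriene synthesis, was at 2.41 and 2.79 CPM in WT and at 1.36 and 2.98 CPM in p53-/-. The p53-/- libraries lay on either side of the WT libraries, with a log2 fold change of -0.26 (95% interval -1.65 to 1.13, edgeR adjusted p = 0.857). It was -0.89 without library 10 and 0.20 without library 9. Of its exonic bases 13.3% overlap Gm19719 on the other strand, and the strand setting of the counting is not given in the sources used here. Ptgs1 (ENSMUSG00000047250), the constitutive cyclooxygenase COX-1, was at 10.4 and 34.9 CPM in WT and at 19.3 and 20.2 CPM in p53-/-. WT library 8 was thus the highest and WT library 7 the lowest, and the p53-/- libraries lay close together between them. The log2 fold change was -0.20 (95% interval -1.57 to 1.18, edgeR adjusted p = 0.898). It became 0.92 without library 8 and -0.82 without library 7, so the direction rested on which WT library was used. COX-1 is also made by platelets, endothelium and smooth muscle. Smooth muscle and fibroblast markers followed the same order in WT, summing to 426 and 3642 CPM in libraries 7 and 8. So did endothelial markers, at 40.2 and 130 CPM, and macrophage and monocyte markers, at 70.4 and 215 CPM. In p53-/- libraries 9 and 10 the smooth muscle and fibroblast sums were 1128 and 895 CPM. The endothelial sums there were 108 and 143 CPM, and the macrophage and monocyte sums 269 and 714 CPM. The platelet list summed to 4.58 and 27.3 CPM in libraries 7 and 8, of which the integrin gene Itgb3 had 2.66 and 23.3 CPM. The platelet chemokine Ppbp had 0 counts in all 4 libraries. The part of any of these cells in the level of Ptgs1 was not tested.

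**Figure D2:**
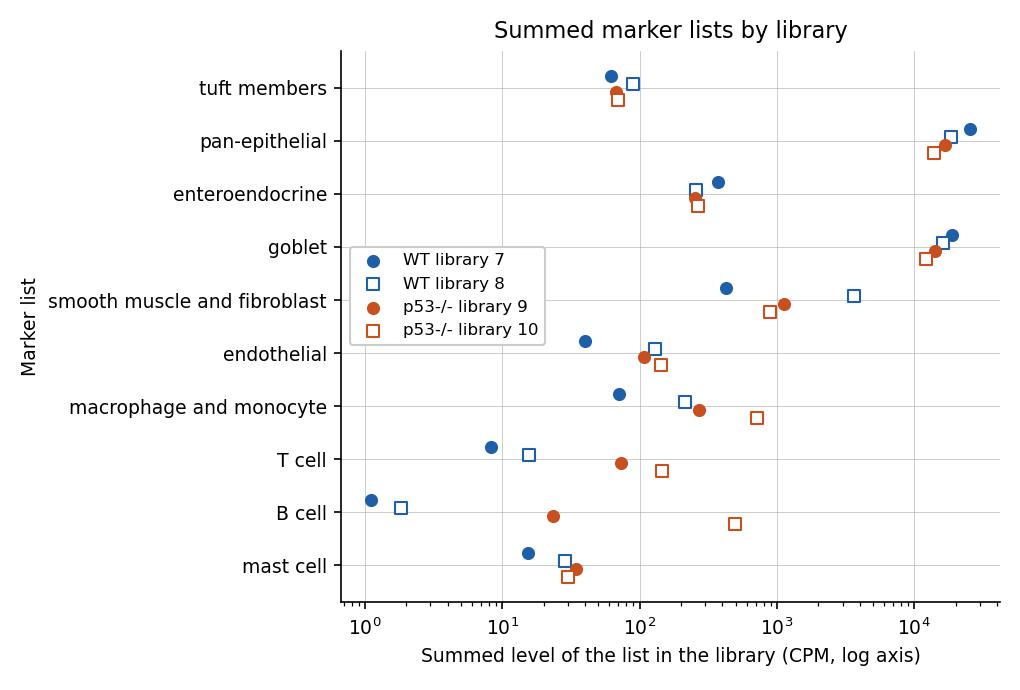
Summed level of the 10 tuft cell genes and of marker lists of other cells in each library, in CPM on a log axis. The tuft cell genes sum to 61.6 to 89.3 CPM in all 4 libraries, whereas B cell markers run from 1.11 to 491 CPM and smooth muscle and fibroblast markers from 426 to 3642 CPM.

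Counts divided by the exonic length of the gene allow a rough comparison of the levels of different genes. The length joined all exons of all transcripts that GENCODE M21 lists for a gene, 15296 bases for Dclk1. Levels per kilobase depend on that choice, and the annotation used for the counting is not given. On this scale, as the mean CPM per kilobase over the 4 libraries, Ptgs1 was the highest at 5.46, followed by Avil at 2.95, Trpm5 at 2.33 and Alox5ap at 1.68. Pou2f3, Dclk1 and Sucnr1 were at nearly one level, 0.940, 0.926 and 0.919, and Hpgds was at 0.635. Gfi1b at 0.301 and Il25 at 0.217 were the lowest. For all 9 pairs of neighbours in this order the ranges over the libraries overlapped, so the order of neighbours is not resolved by 4 libraries.

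Tuft cells belong to the epithelium, and the share of counts on pan-epithelial markers differed between libraries. The 10 pan-epithelial markers took 2.35% and 1.89% of the counts in WT and 1.73% and 1.41% in p53-/-. All 10 had a lower fitted level in p53-/-, with a median log2 fold change of -0.47. In edgeR 0 of 10 passed the threshold and 1 had an unadjusted p under 0.05, beside 18.0% of all genes. DESeq2 called 2 of these markers, beside 8.54% of all genes. Dclk1 was at 620 and 948 ppm of the summed counts of these markers in WT and at 669 and 882 ppm in p53-/-. Its genotypes overlapped on this scale, and the log2 fold change was -0.01 (edgeR adjusted p = 0.986). Trpm5 was at 615 and 916 ppm of these counts in WT and at 776 and 1015 ppm in p53-/-, and overlapped as well. Pou2f3 was at 92.7 and 159 ppm in WT and at 188 and 230 ppm in p53-/-. On this scale the p53-/- libraries were both above the WT libraries for 5 of the 10 members, namely Il25, Pou2f3, Gfi1b, Avil and Hpgds. Of the 9 tested members these were 4, beside 54.4% of all genes tested on the same scale. The median log2 fold change of the 9 tested members was then 0.37, beside 0.48 for all genes tested, and Hpgds had 1.70 (edgeR adjusted p = 0.184). For secretory cells of the same epithelium, the median log2 fold change was -0.28 for 8 goblet cell markers, -0.01 for 10 enteroendocrine markers and 0.61 for 7 Paneth cell markers, with 0 past the threshold in each list by edgeR. At an unadjusted p under 0.05 there was 1 gene in each of these lists, and DESeq2 also called 1 in each.

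**Figure D3:**
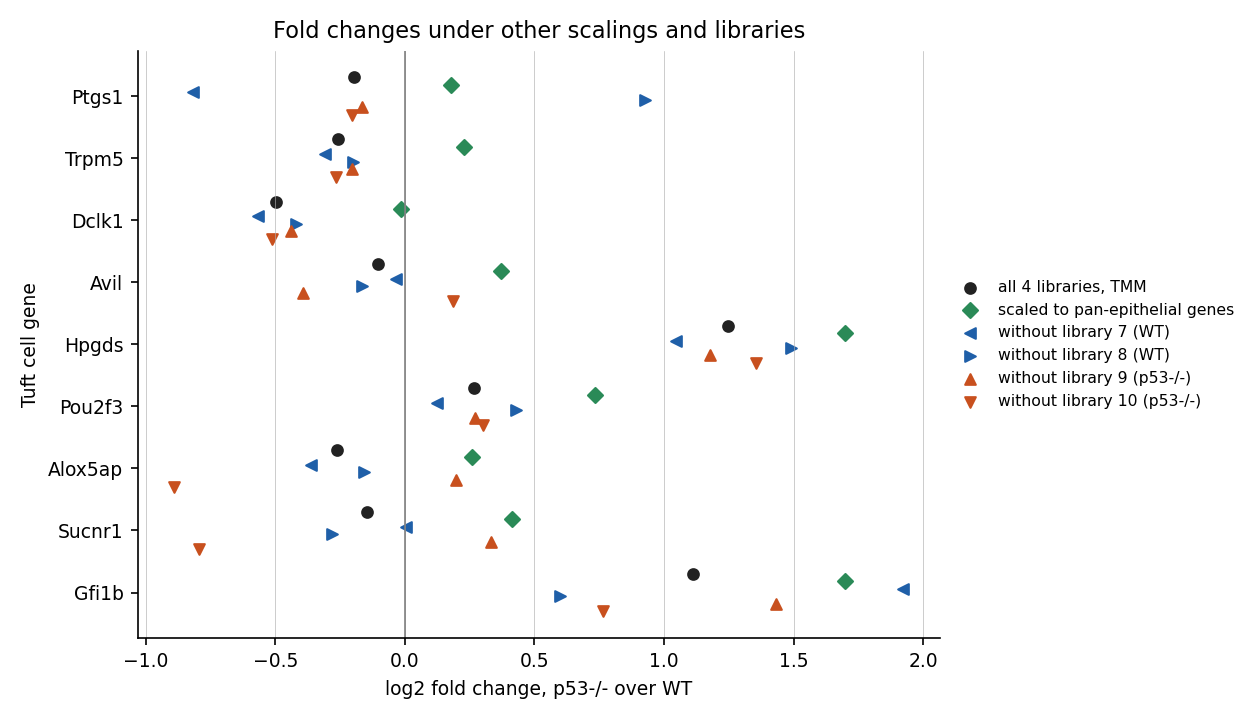
Log2 fold change, p53-/- over WT, of the 9 tested tuft cell genes with all 4 libraries under TMM scaling, with the libraries scaled to the pan-epithelial genes, and with each library left out. Hpgds lies between 1.05 and 1.70 in all 6 of these fits, and Ptgs1 moves from -0.82 without library 7 to 0.92 without library 8.

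The other genes of the chemosensory cascade were present at a wide range of levels. Of 12 genes 9 were tested, with 6 higher and 3 lower fitted levels in p53-/- and a median log2 fold change of 0.60. In edgeR 0 passed the threshold and 2 had an unadjusted p under 0.05, beside 18.0% of all genes. DESeq2 called 0, beside 8.54% of all genes. At the receptors, the taste receptor subunit Tas1r3 was at 0.928 and 1.82 CPM in WT and at 2.37 and 1.79 CPM in p53-/-, and Tas1r1 had 0 to 4 counts per library. Ffar3, a receptor for short-chain fatty acids, was at 2.35 and 1.75 CPM in WT and at 1.88 and 1.89 CPM in p53-/-. Gnat3, the taste G protein α-gustducin, was at 1.67 and 0.973 CPM in WT and at 0.701 and 0.497 CPM in p53-/-, lower in both (log2 fold change -1.13, 95% interval -2.66 to 0.40, edgeR adjusted p = 0.408). Its partners Gng13 and Gnb3 had at most 8 counts in any library.

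Downstream of the G proteins, the phospholipase Plcb2 was at 2.48 and 5.13 CPM in WT and at 6.97 and 11.7 CPM in p53-/-, a log2 fold change of 1.30 (95% interval 0.02 to 2.58, edgeR adjusted p = 0.274). The IP3 receptor Itpr3 was at 127 and 108 CPM in WT and at 202 and 173 CPM in p53-/-, a log2 fold change of 0.67 (95% interval 0.20 to 1.14, edgeR adjusted p = 0.170). These were the pair with an unadjusted p under 0.05. Both are expressed outside tuft cells, Plcb2 in blood cells and Itpr3 in many epithelia. Itpr2 was at 43.7 and 69.2 CPM in WT and at 54.6 and 56.0 CPM in p53-/-. Plcg2 and Irag2, the latter also named Lrmp and found in both tuft cells and lymphocytes, were high in library 10. Plcg2 was at 32.6 and 28.9 CPM in WT and at 36.7 and 74.6 CPM in p53-/-, and Irag2 at 7.80 and 7.14 CPM in WT and at 8.50 and 29.9 CPM in p53-/-. Without library 10 their log2 fold changes went from 0.86 to 0.31 and from 1.36 to 0.24. B cell markers summed to 491 CPM in that library and to 1.11 to 23.3 CPM in the others, and their part in these values was not tested. Rgs13, a regulator of G protein signaling in tuft cells and germinal center B cells, was at 5.57 and 7.40 CPM in WT and at 5.57 and 9.35 CPM in p53-/-.

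**Figure D4:**
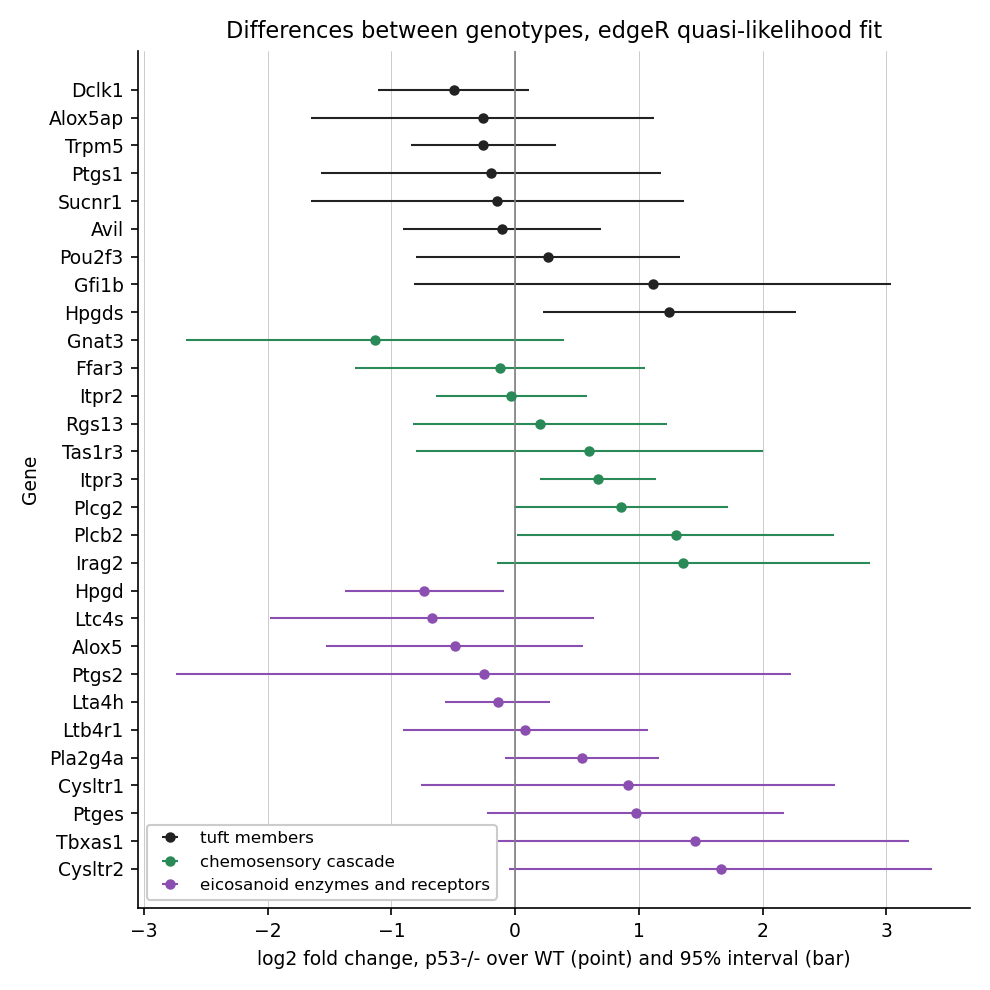
Log2 fold change, p53-/- over WT, with its 95% interval from edgeR's quasi-likelihood fit, for the tested tuft cell genes (black), the chemosensory cascade (green) and eicosanoid enzymes and receptors (purple). The interval leaves out 0 for Hpgds, Plcb2, Itpr3 and Hpgd, and none of the genes drawn passed the threshold after adjustment.

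Of 26 further tuft cell markers, 25 were tested, with 14 higher and 11 lower fitted levels in p53-/- and a median log2 fold change of 0.16. In edgeR 0 passed the threshold and 4 had an unadjusted p under 0.05, beside 18.0% of all genes. DESeq2 called 8.54% of all genes and 2 of these markers, Fyb and Inpp5d, both higher. The most abundant were genes of the wider epithelium. Krt18, a keratin of simple epithelia, was at 534 and 358 CPM in WT and at 313 and 333 CPM in p53-/-. Atp2a3, a calcium pump, was at 301 and 270 CPM in WT and at 369 and 373 CPM in p53-/-, and Espn, an actin bundler of microvilli, was at 282 to 300.4 CPM in all 4 libraries. The largest differences were those of Spib and Inpp5d, a transcription factor and a lipid phosphatase that are also genes of B cells and other leukocytes. Spib was at 7.74 and 7.07 CPM in WT, 7.98 CPM in library 9 and 76.8 CPM in library 10, and its log2 fold change of 2.51 became 0.16 without library 10. Inpp5d was at 4.52 and 8.63 CPM in WT and at 12.9 and 46.5 CPM in p53-/-, a log2 fold change of 2.17 that became 1.01 without library 10 (edgeR adjusted p = 0.198 with it, DESeq2 0.00774). Fyb, an adaptor of lymphoid and myeloid cells too, was at 4.95 and 7.07 CPM in WT and at 12.5 and 15.7 CPM in p53-/- (edgeR adjusted p = 0.163, DESeq2 0.0362).

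Among the 25 tested markers both p53-/- libraries were above both WT libraries for 8, beside 26.4% of all genes, and below both for 5, beside 24.4%. The 5 were Krt18 and 4 genes that are named here after their values were seen. Sh2d6, an SH2-domain adaptor, was at 10.8 and 12.9 CPM in WT and at 7.06 and 7.26 CPM in p53-/-, a log2 fold change of -0.72 (95% interval -1.46 to 0.01, edgeR adjusted p = 0.281). Sh2d7 was at 8.91 and 8.82 CPM in WT and at 5.61 and 5.82 CPM in p53-/-, a log2 fold change of -0.63 (95% interval -1.42 to 0.15, edgeR adjusted p = 0.369). Siglecf, a sialic acid-binding lectin of tuft cells and eosinophils, was at 6.50 and 7.92 CPM in WT and at 5.08 and 5.62 CPM in p53-/-. Chat, which makes acetylcholine in tuft cells and enteric neurons, was at 1.11 and 1.04 CPM in WT and at 0.526 and 0.796 CPM in p53-/-. None of these passed the threshold in edgeR or DESeq2, and relative to the epithelial markers the log2 fold change of Sh2d6 was -0.25. Among the 8 in the other direction, Il17rb, a subunit of the IL-25 receptor that was also named after its values were seen, was at 2.23 and 2.08 CPM in WT and at 2.498 and 2.69 CPM in p53-/-.

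Around Alox5ap, Hpgds and Ptgs1, 14 eicosanoid enzymes and receptors were examined. Of these 11 were tested, with 6 higher and 5 lower fitted levels and a median log2 fold change of 0.08. In edgeR 0 passed the threshold and 1 had an unadjusted p under 0.05, beside 18.0% of all genes. DESeq2 called 0, beside 8.54% of all genes. On the leukotriene branch, 5-lipoxygenase (Alox5) was at 4.08 and 4.35 CPM in WT and at 3.46 and 2.54 CPM in p53-/-. Ltc4s, the synthase of the cysteinyl leukotrienes that tuft cells release, was at 1.55 and 2.14 CPM in WT and at 0.964 and 1.34 CPM in p53-/-. Lta4h, which is widely expressed, was at 187 and 168 CPM in WT and at 165 and 158 CPM in p53-/-. All 3 were lower in both p53-/- libraries, and each 95% interval included 0. Among the 11 tested genes both p53-/- libraries were below both WT libraries for 4, beside 24.4% of all genes. They were above both for 5, beside 26.4% of all genes. The leukotriene receptor Cysltr2 was at 0.371 and 1.17 CPM in WT and at 2.15 and 2.74 CPM in p53-/-. Its log2 fold change was 1.66 (95% interval -0.05 to 3.37, edgeR adjusted p = 0.289). The receptor Cysltr1 was at 0.619 and 1.95 CPM in WT and at 2.15 and 2.69 CPM in p53-/-, a log2 fold change of 0.91. For the receptor Ltb4r1 the genotypes overlapped, at 4.08 and 4.41 CPM in WT and 5.22 and 3.78 CPM in p53-/-. Its log2 fold change was 0.08.

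On the prostaglandin branch, the phospholipase Pla2g4a, which frees arachidonic acid, was at 12.0 and 14.7 CPM in WT and at 21.1 and 17.8 CPM in p53-/-. The inducible cyclooxygenase Ptgs2 was at 0.743 and 7.53 CPM in WT and at 2.85 and 4.08 CPM in p53-/-, so that library 7 was the lowest and library 8 the highest, the same order as for Ptgs1. The PGE2 synthase Ptges was at 3.59 and 8.69 CPM in WT and at 11.3 and 12.8 CPM in p53-/-, and the thromboxane synthase Tbxas1 at 0.495 and 1.75 CPM in WT and at 2.94 and 3.23 CPM in p53-/-. Ptgds, the other PGD2 synthase, had 3 counts in library 9 and 0 in the other libraries. The receptors for PGD2, Ptgdr and Ptgdr2, were too low to be tested. Hpgd, which degrades prostaglandins, was at 173 and 261 CPM in WT and at 142 and 119 CPM in p53-/-, a log2 fold change of -0.73 (95% interval -1.38 to -0.09, unadjusted p = 0.0318, edgeR adjusted p = 0.232). For Hpgd the log2 fold change was -0.41 without library 8 and -0.99 without library 7. It was -0.30 when the libraries were scaled to epithelial markers. Hpgd is a separate gene from Hpgds, and the 2 had fitted differences of opposite sign.

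The cells that respond to IL-25 were examined through 16 genes of the type 2 circuit, of which 11 were tested, with 8 higher and 3 lower fitted levels and a median log2 fold change of 0.27. In edgeR 0 passed the threshold and 2 had an unadjusted p under 0.05, beside 18.0% of all genes. DESeq2 called 8.54% of all genes and, on this list, Areg lower and Icos higher. The type 2 cytokines Il5, Il9 and Il13 had 0 counts in all 4 libraries, which allows up to 0.132 to 0.195 CPM per library. Receptor and signaling genes were well detected. Il13ra1 was at 142 and 126 CPM in WT and at 163 and 136 CPM in p53-/-, Il4ra at 108 and 117 CPM in WT and at 133 and 130 CPM in p53-/-, and Stat6, which carries the IL-4 and IL-13 signal, at 158 and 152 CPM in WT and at 134 and 121 CPM in p53-/-. Areg, an epidermal growth factor receptor ligand made by type 2 lymphoid cells and by epithelium, was at 67.2 and 203 CPM in WT and at 7.14 and 11.6 CPM in p53-/-. Its log2 fold change of -3.85 (95% interval -5.36 to -2.33) had an adjusted p of 0.0740 in edgeR and of 1.70e-12 in DESeq2, and it was past the threshold in edgeR without library 7 (-4.43, adjusted p = 0.00878) and without library 8 (-2.84, adjusted p = 0.0157). Icos, a costimulatory receptor of T cells and of type 2 innate lymphoid cells, had 3 and 4 counts in WT and 36 and 163 counts in p53-/-, a log2 fold change of 4.403 that became 2.83 without library 10 (edgeR adjusted p = 0.127 with it, DESeq2 0.00101). It passed the filter on low counts through its level in the p53-/- libraries. The 10 T cell markers summed to 8.23 and 15.8 CPM in WT and to 73.3 and 147 CPM in p53-/-, and their part in the level of Icos was not tested.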

How the data were processed

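The table deposited by the authors holds raw read counts for each gene in 4 libraries, not normalized. The submitters' processing notes name fastp, HISAT2 2.0.5, featureCounts 1.5.0-p3 and DESeq2 1.20.0, and the genome build, annotation and strand setting are not given in the sources used here. The members and gene lists were chosen with earlier results of these data known.

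Counts were scaled by TMM and filtered by filterByExpr, and genotypes were compared, two-sided, by edgeR's quasi-likelihood test (edgeR 4.0.16, limma 3.58.1, R 4.3.3) on 16094 genes with Benjamini-Hochberg adjustment. DESeq2 1.42.0 was an alternative. Replicates of a genotype differed beyond sampling noise (chi-square per degree of freedom 48.0 for WT and 69.5 for p53-/-). The statistics section of the study calls its data points biological replicates, but nothing ties a library to 1 animal, so p-values measure the spread between these libraries. Exonic lengths and overlaps came from GENCODE M21, which held 91.8% of the gene identifiers, and promoters from RefSeq (GRCm38.p6). Named genes were all 10 members, every gene of the chemosensory and eicosanoid lists by role, of the other lists the most abundant genes, those at 0 in every library and those with the largest differences, and those said to be chosen later. A gene that is withheld is not reported here.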

Additional observations from a re-analysis of the deposited data

How the results depend on the processing

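With 2 libraries per genotype, the narrowest 95% interval of a member, that of Trpm5, ran from -0.85 to 0.33 on the log2 scale, and Il25 and Gfi1b were limited by their counts. No paired analysis was possible because the columns of the table do not carry the replicate numbers of the labels. No tuft cell member passed the threshold under any of the alternatives: library size only, RLE or upper-quartile factors, scaling to pan-epithelial genes, no filter on low counts, a minimum of 10 counts in each library, gene segments of immunoglobulins and T cell receptors removed, ribosomal RNA removed (chosen after seeing the data), DESeq2, the likelihood ratio test, and each library left out. Where a library was left out, the lone library of its genotype was assumed to vary like the other 2. The count of all genes called, 48 higher and 31 lower, was 1433 and 761 with no filter, 813 and 563 with DESeq2, 833 and 462 with the likelihood ratio test, 187 and 19 with scaling to pan-epithelial genes, 29 and 20 under upper-quartile factors, 26 and 20 under library size alone, 24 and 18 with a minimum of 10 counts, 212 and 211 without library 7, 565 and 302 without library 8, 40 and 3 without library 9, and 0 and 0 without library 10.

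The median of the members, -0.14, became 0.37 under scaling to pan-epithelial genes, where the median of all genes also shifted to 0.48, and ranged from -0.20 to 0.20 with each library left out. The median of the 54 other genes tested, 0.22, became 0.71 under that scaling and ranged from 0.13 to 0.38 with each library left out. Of those genes 0 passed the threshold, 4 did in DESeq2, and 0 to 1 did with a library left out, Areg without library 7 or 8 and Spib without library 9. Over all genes, 8.54% were called by DESeq2. In alternatives added after seeing the data, 10 of 63 genes passed with no filter, beside 1433 higher and 761 lower of 27841 genes. With the likelihood ratio test 3 of 54 passed (Areg, Icos and Inpp5d), beside 833 higher and 462 lower of 16094 genes. With the other scalings, filters and gene sets 0 passed. Under scaling to pan-epithelial genes the sign turned for Trpm5 (0.23), Avil (0.37), Alox5ap (0.26), Sucnr1 (0.41), Ptgs1 (0.18), Krt18 (0.073) and Espn (0.46). Espn, at -0.03, also turned with library size only (0.039), upper-quartile factors (0.022), no filter (0.014), a minimum of 10 counts (0.042) and ribosomal RNA removed (0.0137). With each library left out, values ran from -0.39 to 0.18 for Avil, -0.89 to 0.20 for Alox5ap, -0.79 to 0.33 for Sucnr1, -0.82 to 0.92 for Ptgs1, 0.60 to 1.92 for Gfi1b and -0.063 to 0.046 for Espn. The cause of these changes was not tested.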
